A study of Homo sapiens with 8 samples.

Results

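The MYC, MAX and antagonist network was examined here as 8 genes: MYC, MAX, MXD1, MXI1, MXD3, MXD4, MNT and MLX. They were chosen by name for their roles, with earlier results of these data known. All 8 were found among the 15445 genes that reached 1 FPKM (a fragment count scaled to the length of the transcript and the size of the library) in 1 or more libraries. HepG2 and Hep3B are human hepatocellular carcinoma (HCC) lines, and each has an untreated control and 3 treatments of 48 h: NaB alone, Cur plus Pip, and all agents at once (combination treatment). NaB stands for sodium pentaborate pentahydrate, Cur for curcumin and Pip for piperine. HepG2 received 2500 µM NaB and Hep3B 1700 µM NaB, while 30 µM Cur and 6 µM Pip were the same in both lines. The sources used here describe the control as untreated and name no vehicle control. Per the methods, Cur and Pip stocks were made in dimethyl sulfoxide and NaB stocks in culture medium. In libraries with Cur and Pip, the agents therefore cannot be told apart from their solvent. Each condition has 1 library, 8 in all, so no fold change within a line has a replicate check and none has a p-value.

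MYC is a transcription factor that binds DNA only with a partner, MAX, at E-box sequences whose core is CACGTG, and its pairs with MAX raise genes for ribosome production, nucleotide and amino acid metabolism and cell division. MXD1, MXI1, MXD3, MXD4 and MNT compete for the same partner, and their pairs with MAX recruit SIN3 and histone deacetylase complexes that repress such genes. MLX is a related partner protein that pairs with the glucose sensors MondoA (gene MLXIP) and ChREBP (gene MLXIPL), and also with some MXD proteins and MNT. In the liver MYC is best known for driving growth in regeneration and in HCC.

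The deposited values describe transcripts that were assembled separately in each library. From their coverage and length, with a fixed number of bases a fragment assumed, 25600000 to 35700000 fragments a library were estimated. Of the assembled transcripts 70.4 to 88.1% were assigned to a gene, fewer in each treated library than in its control. An exact 0 can be a failed estimate: ALB, the albumin gene, is listed at 0 in the HepG2 control and at 2989 to 7518 FPKM in the other HepG2 libraries. Of 26 hepatocyte markers, 23 to 25 reached 1 FPKM in the HepG2 libraries and 3 to 5 in those labelled Hep3B. The summed marker level was 7276 to 16910 FPKM in HepG2 and 85.3 to 495.7 FPKM under the Hep3B label. HNF4A, which encodes a defining liver transcription factor, was at 25.3 to 89.0 FPKM in HepG2 and at 0 to 0.566 FPKM in the others. CPS1, a urea cycle enzyme, ran the other way, at 2.12 to 15.0 FPKM in HepG2 and 74.5 to 469.1 FPKM in the others. The latter are therefore called the libraries labelled Hep3B. Of 8 leukocyte markers 2 or 3 reached 1 FPKM in HepG2, where their sum was 154.2 to 1397 FPKM and LYZ alone was at 149.8 to 1390 FPKM, and the sum was 0 to 1.17 FPKM in the others. PTPRC, CD3E, CSF1R and TYROBP were listed at 0 in every library. Of 8 fibroblast markers 3 or 4 reached 1 FPKM under the Hep3B label, where their sum was 305.0 FPKM in the control and 38.9 to 86.0 FPKM after treatment, against 2.29 to 6.03 FPKM in HepG2. COL1A2, FAP and THY1 were listed at 0 in every library. Of 8 endothelial markers 1 to 3 reached 1 FPKM in each library, with sums of 3.47 to 22.5 FPKM in HepG2 and 8.04 to 18.9 FPKM in the others and with KDR, TEK and CLDN5 listed at 0 throughout. What part these cell markers have in the differences between lines or treatments was not tested, and in bulk RNA fewer cells of a type cannot be told apart from less RNA in each cell. A gene was given the summed FPKM of the transcripts that have at least 50% of their exonic bases in it. Because this sum moves with what was assembled, the depth over those exon bases of a gene that transcripts of all 8 libraries cover is given beside it, on the same FPKM scale, as the common-base depth. This depth lays the mean coverage of each transcript evenly on its bases, so it also moves with what was assembled. Where both measures count the same transcripts they are nearly equal, and the common-base depth is then no independent check.

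**Figure D1:**
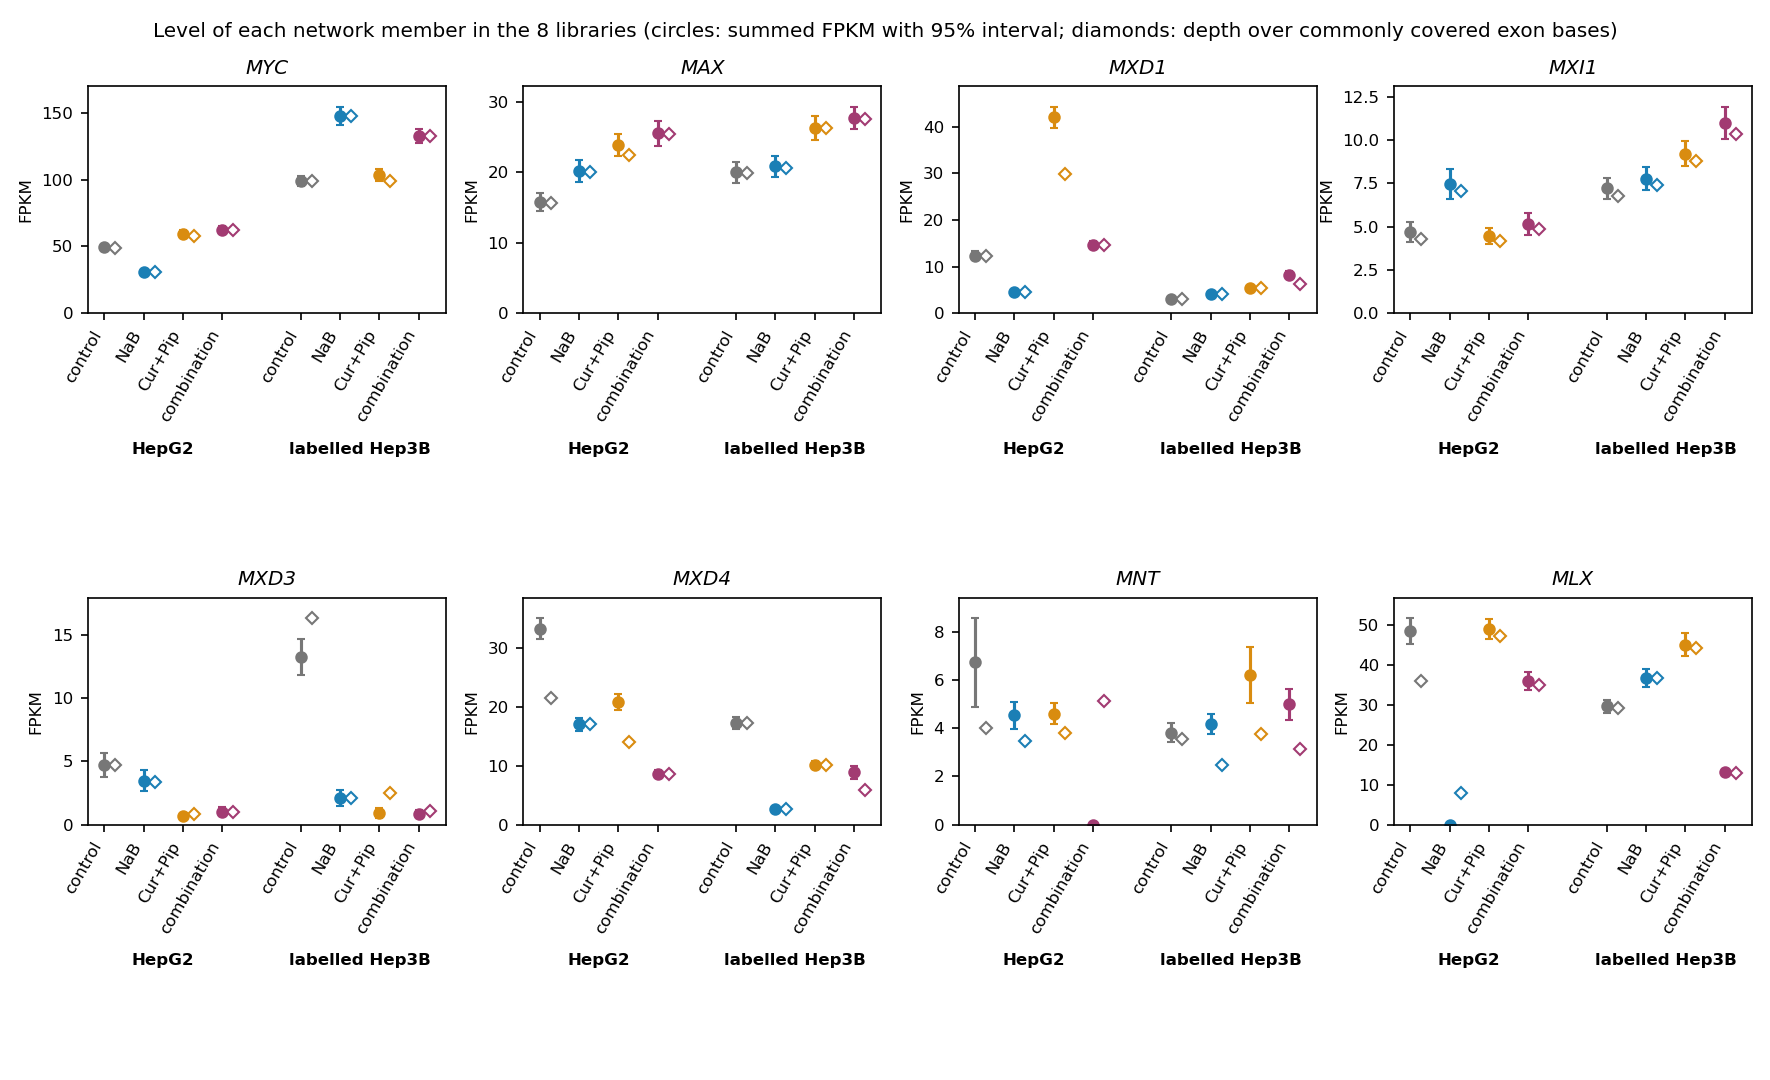
Level in FPKM (y axis, from 0) of each of the 8 members in the 4 HepG2 libraries and the 4 libraries labelled Hep3B (x axis). Circles are the summed FPKM with the 95% interval built from Cufflinks' intervals, diamonds the common-base depth, and each point is 1 library. MXD3 and MXD4 are highest in the control of each line, MAX is lowest there, and the circles of MNT and MLX at 0 have diamonds well above 0.

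MYC was the member with the highest level in all 8 libraries. In HepG2 it was at 49.2 FPKM in the control, 30.9 after NaB, 59.1 with Cur and Pip and 62.6 with the combination. Under the Hep3B label it was at 99.1 FPKM in the control, 148.0 after NaB, 103.5 with Cur and Pip and 132.7 with the combination. NaB thus went with a lower level in HepG2 and a higher level under the Hep3B label, and the combination with a higher level in both lines. The log2 fold changes, on the log2(FPKM + 1) scale, were −0.65 (95% interval −0.76 to −0.55) after NaB in HepG2 and 0.57 (0.49 to 0.66) under the Hep3B label. They were 0.34 (0.24 to 0.44) and 0.42 (0.34 to 0.50) after the combination. Such an interval covers how precisely Cufflinks estimated the single libraries and nothing of how cultures vary. On common-base depth, over 1187 nt and from much the same transcripts, the 4 values were −0.65, 0.57, 0.33 and 0.42. With depth apportioned over all canonical exon bases the values after NaB were 0.11 in HepG2 and −0.04 under the Hep3B label, and with the largest transcript alone the value after the combination in HepG2 was −0.18, so the direction depends on the bases counted. After Cur and Pip under the Hep3B label MYC was at 0.06 on summed FPKM, −0.44 with the largest transcript and −0.52 with apportioned depth. None passed the threshold of an absolute log2 fold change over 1.5.

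MYC lies on chromosome 8 of GRCh38 from 127735434 to 127742951 (plus strand) in GENCODE. Of its 17 assembled transcripts, 11 have an annotated chain of introns, and 6 of the 8 libraries hold a pair of forms that differ by 3 nt. In the Hep3B-labelled library after NaB, both MYC transcripts begin 66.5 kb upstream of the annotated start with an exon that is not annotated. After Cur and Pip 2 of the 3 transcripts begin 161.9 kb upstream and hold 50.8 and 23.6% of the MYC level there. No such upstream start was assembled in the other 6 libraries, and whether cells make these RNAs was not tested.

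MAX, the shared partner, lies on chromosome 14 from 65006174 to 65102695 (minus strand). Its range over the 8 libraries, 15.8 to 27.7 FPKM, was narrower than that of MYC, 30.9 to 148.0 FPKM. MAX was at 15.8, 20.2, 23.9 and 25.5 FPKM in HepG2 in the order control, NaB, Cur and Pip, and combination. In the libraries labelled Hep3B it was at 19.98, 20.8, 26.3 and 27.7 FPKM in the same order. All 6 treated libraries were above their control, and in 5 of the 6 the interval of the log2 fold change excluded 0. The largest difference was 0.66 (0.51 to 0.81) after the combination in HepG2. Against the control, MAX did not always differ less than MYC on summed FPKM. With Cur and Pip MAX was at 0.57 in HepG2 and 0.38 under the Hep3B label, and MYC at 0.26 and 0.06. With the combination MAX was at 0.66 and 0.45, and MYC at 0.34 and 0.42. With NaB MAX was at 0.33 and 0.06, and MYC at −0.65 and 0.57. The MYC level was 3.12 times the MAX level in the HepG2 control and 1.53 times after NaB, against 4.96 and 7.10 times under the Hep3B label.

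MAX is made in a long and a short form that differ by a cassette exon of 27 nt, which lies on chromosome 14 of GRCh38 from 65101546 to 65101572 on the minus strand. It is shown in capitals, with 16 nt of the neighbouring exons on each side, because the share of MAX RNA that holds it differed widely between the libraries.
MAX exon: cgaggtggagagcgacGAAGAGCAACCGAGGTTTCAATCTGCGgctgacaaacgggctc
The exon is the second of 5 in the annotated transcript MAX-205. Transcripts with it held 53.8% of the MAX level in the HepG2 control, 45.4% after NaB, 81.1% with Cur and Pip and 67.8% with the combination. With the Hep3B label the shares were 45.9% in the control, 32.6% after NaB, 100% with Cur and Pip and 68.9% with the combination. In both lines the share was lowest after NaB and highest after Cur and Pip. The transcripts with the exon were at 8.49 and 9.17 FPKM in the HepG2 and Hep3B-labelled controls and at 19.4 and 26.3 FPKM after Cur and Pip. Those without it were at 7.29 and 10.8 FPKM in the controls and at 4.50 FPKM and not listed after Cur and Pip. The form at 4.50 FPKM was a transcript of 1503 nt with an intron that is not annotated. In the controls the form without the exon had the annotated chain of MAX-204, so the share of 81.1% compares unlike transcripts. Cufflinks splits shared reads between such forms, and with 1 library a condition the shares carry no replicate error.

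**Figure D2:**
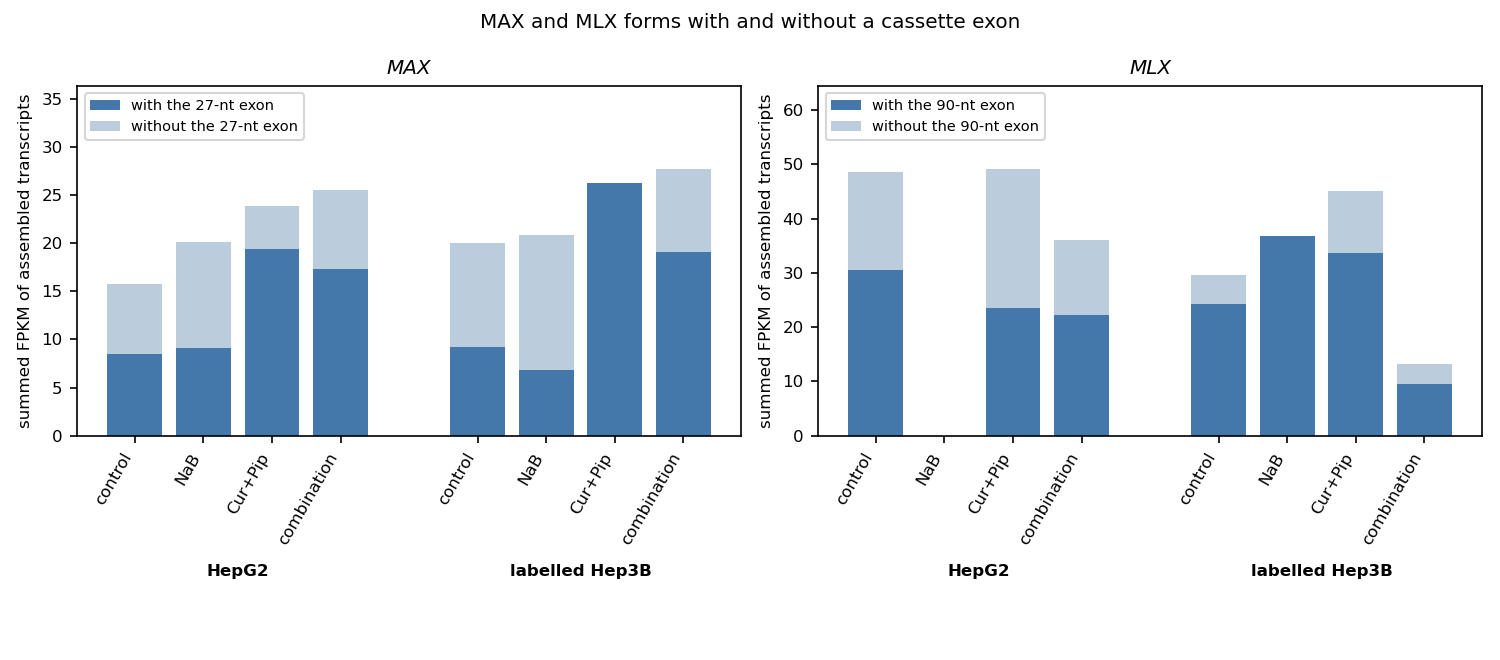
Summed FPKM (y axis, from 0) of assembled transcripts with and without the 27-nt exon of MAX (left) and the 90-nt exon of MLX (right) in the 8 libraries (x axis). Each bar is 1 library without an error bar. The part of MAX with the exon is largest after Cur and Pip in both lines (81.1 and 100%), and the empty MLX bar is HepG2 after NaB, where no transcript was assigned to MLX.

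Among the antagonists MXD3, on chromosome 5 from 177301461 to 177312757 (minus strand), was low after treatment. Its level was 4.71 FPKM in the HepG2 control, 3.47 after NaB, 0.686 with Cur and Pip and 1.04 with the combination. Under the Hep3B label it was at 13.3 FPKM in the control, 2.09 after NaB, 0.896 with Cur and Pip and 0.851 with the combination. Every treated library was below its control. The log2 fold changes were −0.35 (−0.72 to 0.01), −1.76 (−2.08 to −1.44) and −1.49 (−1.84 to −1.13) in HepG2, and −2.21 (−2.53 to −1.88), −2.91 (−3.24 to −2.58) and −2.95 (−3.25 to −2.65) under the Hep3B label, in the order NaB, Cur and Pip, and combination. On common-base depth, over 521 nt, they were −0.38, −1.66 and −1.54 in HepG2 and −2.49, −2.30 and −3.04 under the Hep3B label. With the largest transcript alone the values in HepG2 were 0.23 after NaB and −0.47 with the combination. The combination in HepG2 lay just short of the threshold on summed FPKM and just past it on common-base depth.

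The MXD3 values rest on few and irregular transcripts. None of the 15 transcripts assigned to MXD3 has an annotated chain of introns, and 13 hold an intron that is not annotated. The members' transcripts nearest to the 50% limit of the assignment were those of MXD3, at 51.3 and 52.5% in HepG2 after Cur and Pip. Just outside the limit were transcripts at 48.1% (1.63 FPKM, Hep3B label, Cur and Pip), 46.1% (1.104 FPKM, HepG2, NaB) and 41.6% (6.58 FPKM, Hep3B-labelled control). In HepG2 no such transcript was left out in the control, and 1.104, 0.323 and 0.636 FPKM were left out in the treated libraries. With the Hep3B label the FPKM left out was highest in the control.

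MXD4, which is most often found in differentiated cells, was at 33.3 FPKM in the HepG2 control, 17.0 after NaB, 20.8 with Cur and Pip and 8.68 with the combination. In the libraries labelled Hep3B it was at 17.3 FPKM in the control, 2.72 after NaB, 10.1 with Cur and Pip and 8.87 with the combination. The gene lies on chromosome 4 from 2247432 to 2262109 (minus strand). Each of the 6 treated libraries was below its control with an interval that excluded 0, lowest after the combination in HepG2 and after NaB under the Hep3B label. Its log2 fold change in HepG2 with the combination was −1.83 (−1.95 to −1.70), and −1.22 on common-base depth, which is under the threshold. After NaB in HepG2 it was −0.93, and −0.32 on common-base depth. After NaB under the Hep3B label it was −2.30 (−2.45 to −2.15) on both measures, which rest on the same 1 transcript in each library. After the combination there it was −0.89 (−1.07 to −0.71), and −1.40 on common-base depth. In the HepG2 control 19.3 of the 33.3 FPKM came from a transcript of 2086 nt with an intron that is not annotated, while the transcript with the annotated chain was at 14.0 FPKM.

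MXD1, which rises as cells leave division and differentiate, took another course. It lies on chromosome 2 from 69897688 to 69942945 (plus strand). Its level was 12.3 FPKM in the HepG2 control, 4.51 after NaB, 42.1 with Cur and Pip and 14.7 with the combination. With the Hep3B label it was at 3.02 FPKM in the control, 4.15 after NaB, 5.30 with Cur and Pip and 8.27 with the combination. On summed FPKM it was high in HepG2 only after Cur and Pip and low after NaB, whereas under the Hep3B label all 3 treated libraries were above the control. The log2 fold change after Cur and Pip in HepG2 was 1.69 (1.57 to 1.82), the only one of a member past the threshold upwards in these 6 comparisons. On common-base depth, 29.96 against 12.3 FPKM, it was 1.22, below the threshold. With depth apportioned over canonical exons the values for MXD1 in HepG2 were −0.30 with NaB, 2.02 with Cur and Pip and 1.22 with the combination. A second transcript of 1182 nt made up 19.1 of the 42.1 FPKM there, and MXD1 of the HepG2 control was assembled as 2638 nt against 5301 to 5596 nt for the same annotated chain elsewhere. After the combination under the Hep3B label the log2 fold change was 1.21 (1.05 to 1.37), and 0.84 on common-base depth.

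The promoter windows of MXD1, MXD3 and MXD4 are shown because these antagonists differed most from their controls and MXD1 in the other direction. They are from RefSeq on GRCh38.p14, read 5′ to 3′ from 250 bases before to 50 bases after the start site, with the E-box core CACGTG in capitals where it occurs. The window of MXD1 is chr2:69914859-69915158 (plus strand), that of MXD3 is chr5:177312703-177313002 (minus strand), and that of MXD4 is chr4:2262060-2262359 (minus strand).
MXD1: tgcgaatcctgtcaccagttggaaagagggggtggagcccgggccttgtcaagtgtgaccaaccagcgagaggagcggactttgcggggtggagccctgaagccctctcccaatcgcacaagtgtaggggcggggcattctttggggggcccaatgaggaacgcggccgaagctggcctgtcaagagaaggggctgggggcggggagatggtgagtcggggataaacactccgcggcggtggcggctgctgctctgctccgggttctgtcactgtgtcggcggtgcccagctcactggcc
MXD3: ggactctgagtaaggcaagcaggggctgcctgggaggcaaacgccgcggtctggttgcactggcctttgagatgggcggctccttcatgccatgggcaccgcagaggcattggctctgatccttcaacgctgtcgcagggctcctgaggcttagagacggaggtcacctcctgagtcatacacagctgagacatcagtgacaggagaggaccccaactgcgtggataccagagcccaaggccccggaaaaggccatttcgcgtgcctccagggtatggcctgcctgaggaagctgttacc
MXD4: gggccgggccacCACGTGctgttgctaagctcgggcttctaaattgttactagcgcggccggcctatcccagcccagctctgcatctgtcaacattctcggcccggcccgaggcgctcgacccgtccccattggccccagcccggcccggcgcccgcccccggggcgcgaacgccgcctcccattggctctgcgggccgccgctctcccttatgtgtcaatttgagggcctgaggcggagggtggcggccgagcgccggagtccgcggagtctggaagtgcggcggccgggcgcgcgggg
The motif CACGTG, which reads the same on both strands, was found once in the MXD4 window, 238 bases before the start site, and not in the MXD1 and MXD3 windows. Over the 7 members in the RefSeq table it was found in the windows of 3, namely MXD4, MNT and MLX, and 7.26% of all 35116 windows hold it. All 10 assembled MXD1 transcripts and 11 of 12 of MXD4 begin inside their window, but only 3 of 15 of MXD3 do, so most assembled MXD3 transcripts start elsewhere. A match of letters is a description and not a site of binding.

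MXI1, on chromosome 10 from 110207605 to 110287365 (plus strand), was low, and none of its values passed the threshold. It was at 4.67, 7.46, 4.48 and 5.15 FPKM in HepG2 in the order control, NaB, Cur and Pip, and combination, and at 7.23, 7.78, 9.23 and 10.999 FPKM under the Hep3B label. In HepG2 the library after NaB stood above the other 3, and under the Hep3B label the combination was highest. The log2 fold changes furthest from 0 were 0.58 (0.37 to 0.78) after NaB in HepG2 and 0.54 (0.39 to 0.70) after the combination under the Hep3B label, the latter −0.09 with the largest transcript alone.

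MNT, an antagonist expressed in most tissues, lies on chromosome 17 from 2384073 to 2401104 (minus strand). It was at 6.73, 4.53 and 4.59 FPKM in HepG2 in the control, after NaB and after Cur and Pip, and no transcript was assigned to it after the combination. There 1 transcript of 10705 nt and 17 exons, at 5.15 FPKM, runs from MNT into its neighbour METTL16 and was assigned to METTL16. The common-base depth of MNT in these 4 libraries was 4.01, 3.49, 3.79 and 5.14 FPKM. The last value is the mean coverage of that joint transcript, which has 42.1% of its bases in MNT exons. It does not show how deeply MNT itself was covered after the combination. Under the Hep3B label MNT was at 3.81, 4.18, 6.21 and 4.99 FPKM, and at 3.56, 2.49, 3.74 and 3.12 FPKM on common-base depth. Its sign against the control differed between the measures after NaB and after the combination under the Hep3B label, and no direction is given for it.

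MLX lies on chromosome 17 from 42567072 to 42573239 (plus strand). Its level was 48.6 FPKM in untreated HepG2, 49.1 with Cur and Pip and 36.0 with the combination, and no transcript was assigned to it after NaB. In that library 3 transcripts of 6685 to 7019 nt cover MLX, and with 33.6 to 35.3% of their bases in MLX exons they were assigned to no gene. Their FPKM summed to 7.97, and the common-base depth of MLX was 7.91 FPKM after NaB against 36.1, 47.2 and 35.0 FPKM in the other HepG2 libraries. On that scale MLX was lower after NaB (log2 fold change −2.06). That depth is the mean coverage of transcripts with most of their bases outside MLX exons, so it does not give the level of MLX itself. In the libraries labelled Hep3B MLX was at 29.7 FPKM in the control, 36.7 after NaB, 45.1 with Cur and Pip and 13.2 with the combination. It was thus low only after the combination, with a log2 fold change of −1.11 (−1.22 to −0.996) and −1.12 on common-base depth. In the control and after the combination there, the assembled transcripts had 13 to 15 exons. They ran past the end of MLX, to 42577660 and 42578513, unlike those after NaB and after Cur and Pip. After Cur and Pip the log2 fold change was 0.59, and −0.26 with apportioned depth. MLX also has a cassette exon, of 90 nt, on chromosome 17 of GRCh38 from 42568470 to 42568559 on the plus strand, and transcripts with it held 47.99 to 63.0% of the MLX level in the 3 HepG2 libraries where MLX was listed and 71.5 to 100% under the Hep3B label.

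**Figure D3:**
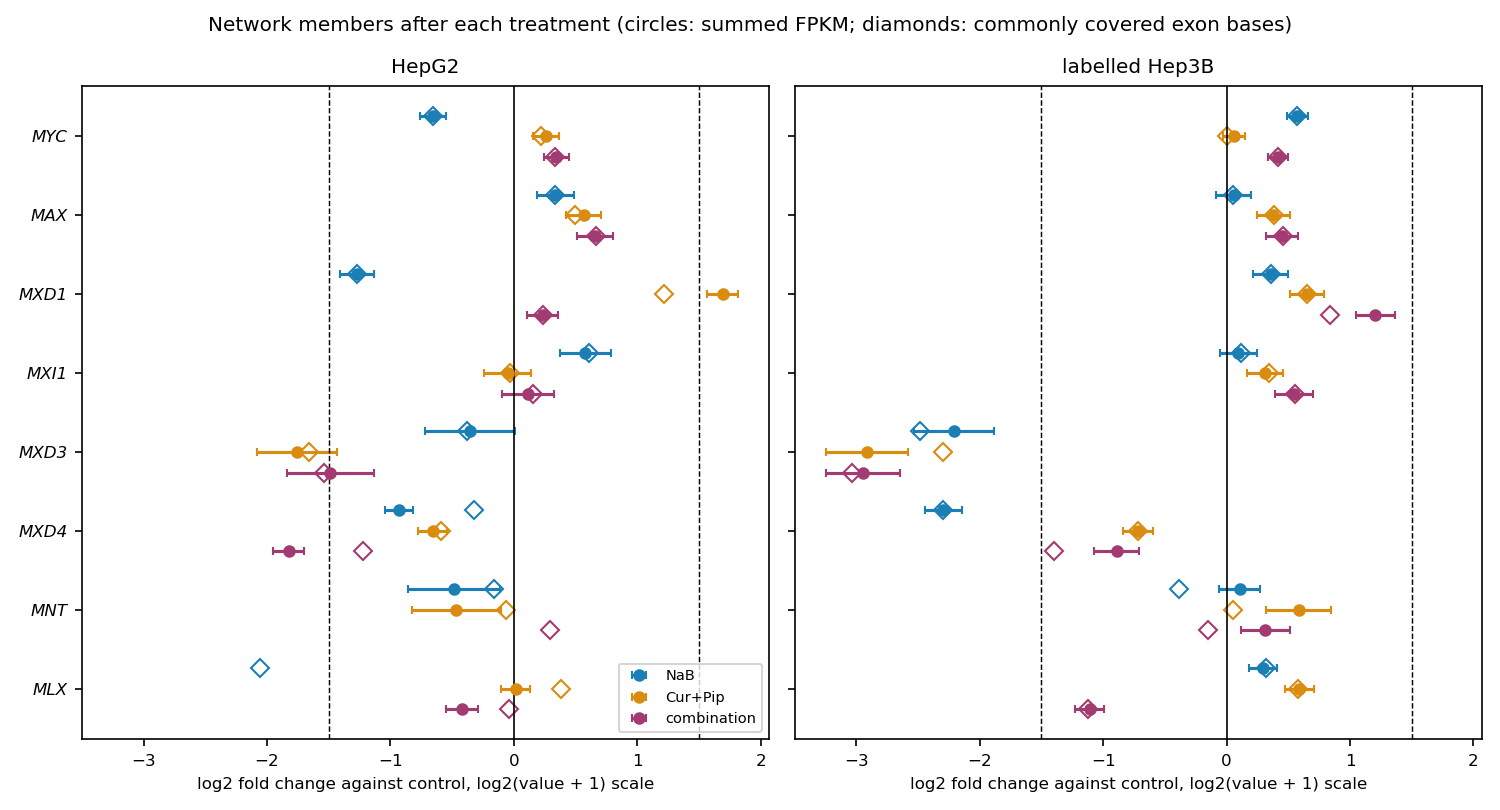
Log2 fold change against the control of the same line (x axis, log2(value + 1) scale) of the 8 members (y axis) for the 3 treatments. Circles with 95% intervals from Cufflinks are summed FPKM, diamonds the common-base depth, and dashed lines the threshold of 1.5; MLX after NaB and MNT after the combination in HepG2 have no circle because they are listed at 0. MXD3 and MXD4 lie left of 0 in all 6 comparisons on both measures.

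Counted over the 8 members, few passed the threshold in any comparison. In HepG2 after NaB 1 of 8 did (MLX, listed at 0), against 9.74% of all 13428 genes tested, 4.69% upwards and 5.05% downwards. After Cur and Pip 2 of 8 did, MXD1 upwards and MXD3 downwards, against 19.1% of all genes, 8.96% upwards and 10.2% downwards. After the combination 2 of 8 did, MXD4 and MNT, both downwards and the latter listed at 0, against 19.5%, 8.02% upwards and 11.5% downwards. In the libraries labelled Hep3B, among 13347 genes, MXD3 and MXD4 passed downwards after NaB, against 12.0% of all genes, 4.97% upwards and 7.01% downwards. MXD3 alone passed, downwards, after Cur and Pip, against 10.4%, 6.44% upwards and 3.95% downwards. MXD3 alone also passed downwards after the combination, against 15.0%, 6.79% upwards and 8.17% downwards. On common-base depth MLX passed after NaB in HepG2, MXD3 with Cur and Pip and also with the combination in HepG2, and MXD3 and MXD4 after NaB, MXD3 after Cur and Pip and MXD3 after the combination under the Hep3B label. There 1.65, 5.89 and 6.20% of 9018 genes passed downwards in HepG2 and 3.23, 0.976 and 3.86% under the Hep3B label. The median log2 fold change of all genes listed in both libraries was −0.02 to 0.01 in HepG2. For the Hep3B label it was −0.16 with NaB, −0.02 with Cur and Pip and −0.09 with the combination. The 3 comparisons of a line share their control library, so they are not independent of one another.

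To ask which differences the lines share, all 8 libraries were fitted with limma on the log2(FPKM + 1) scale with line and treatment as terms. This left 3 residual degrees of freedom, and a treatment difference that the lines do not share enters the error. After Benjamini-Hochberg adjustment it called 0 of 8 members with each treatment, against 0% of 15445 genes with NaB, 0.0259% with Cur and Pip and 0.0712% with the combination. At an unadjusted p under 0.05 it gave 1 of 8 members for each treatment, against 4.70, 5.93 and 10.7% of all genes. MXD3 was lower after Cur and Pip by a log2 fold change of −2.34 (SE 0.51, limma, Benjamini-Hochberg adjusted p = 0.686) and after the combination by −2.22 (SE 0.51, adjusted p = 0.416), in both lines each time. MXD4 after NaB was at −1.61 (SE 0.58, limma, Benjamini-Hochberg adjusted p = 0.898), lower in both lines. For MYC the estimates were −0.04, 0.16 and 0.38, each with an SE of 0.45, and for MAX 0.20, 0.47 and 0.56, each with an SE of 0.29, with the treatments in that order. None of these passed the adjusted threshold, and with so few degrees of freedom the fit does not show that the members stayed the same.

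Set beside each other in 1 library, MYC and its antagonists give a simple description of the balance of the network at the RNA level. On common-base depth the 5 antagonists summed to 46.9 FPKM in either control. In HepG2 the sum was 35.5 FPKM with NaB, 52.7 FPKM with Cur and Pip and 34.3 FPKM with the combination, and in the libraries labelled Hep3B it was 18.8, 30.5 and 26.7 FPKM in the same order. The MYC level divided by this sum was 1.05 in the HepG2 control, 0.87 after NaB, 1.09 with Cur and Pip and 1.81 with the combination. It was 2.11 in the Hep3B-labelled control, 7.85 after NaB, 3.25 with Cur and Pip and 4.97 with the combination. The ratio was therefore highest after the combination in HepG2 and after NaB under the Hep3B label. MXD4 made up the largest part of the sum in both controls, in HepG2 after NaB and under the Hep3B label after Cur and Pip. In the other HepG2 libraries it was MXD1, and in the remaining ones labelled Hep3B it was MXI1. On summed FPKM the ratio in HepG2 was 0.796 in the control and 0.834, 0.814 and 2.12 after the treatments, the last with MNT at 0. In the sum of 34.3 FPKM on common-base depth, MNT entered at 5.14 FPKM from the transcript that also covers METTL16.

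**Figure D4:**
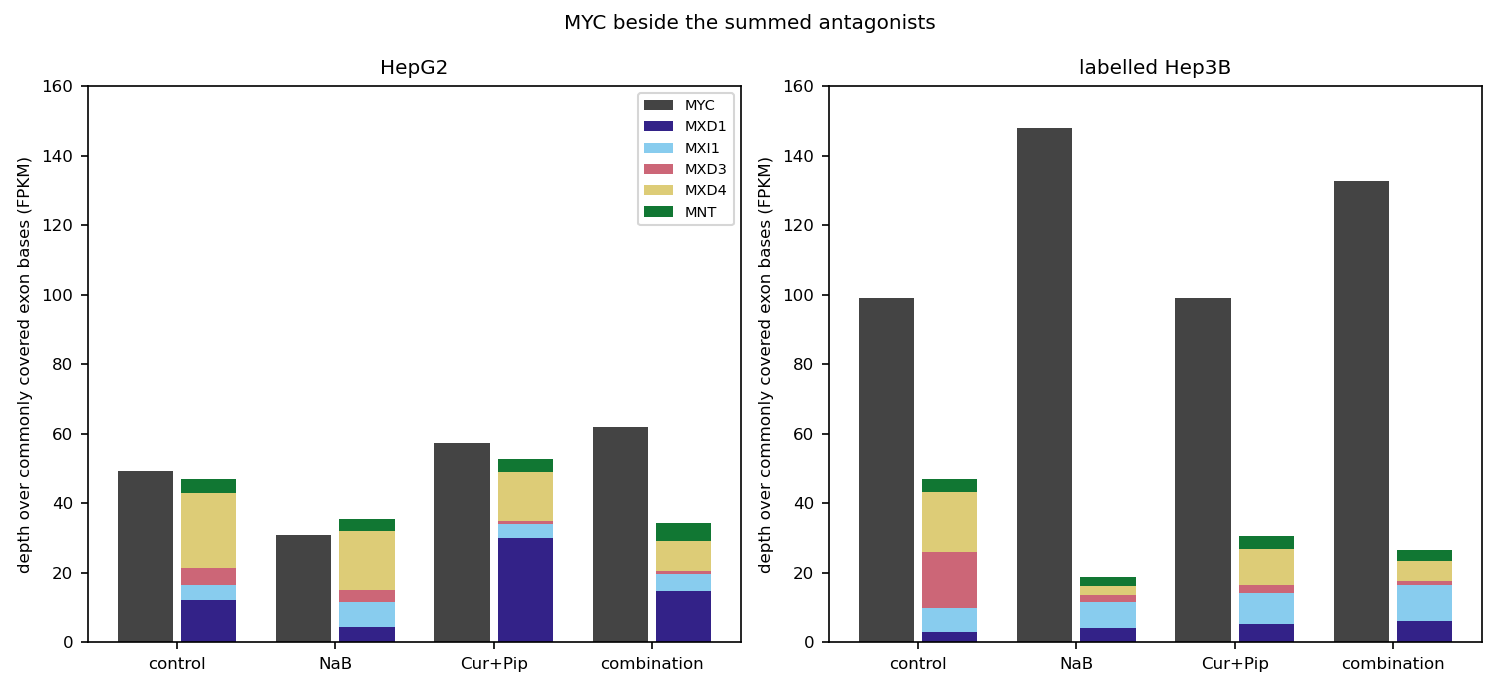
Common-base depth in FPKM (y axis, from 0) of MYC (dark bars) beside the stacked depth of MXD1, MXI1, MXD3, MXD4 and MNT in the 4 HepG2 libraries (left) and the 4 libraries labelled Hep3B (right). Each bar is 1 library without an error bar. The antagonist stacks are nearly equal in the controls, at 46.9 FPKM, and lowest after NaB under the Hep3B label, at 18.8 FPKM.

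The untreated lines differed in several members. The Hep3B-labelled control had more MYC (log2 ratio to the HepG2 control 0.996), MXD3 (1.32) and MXI1 (0.54) and less MXD1 (−1.73). These 4 were at 0.996, 1.60, 0.55 and −1.73 on common-base depth. MXD4, MNT and MLX were at −0.91, −0.68 and −0.69 on summed FPKM and at −0.30, −0.14 and −0.29 on common-base depth. These are single libraries of lines that also differ in their hepatocyte markers.

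The 2 partial treatments and the combination can be set side by side, since the doses within a line are the same. In HepG2 the combination was above NaB alone for MXD1, with a log2 difference of 1.51 (1.39 to 1.63), and for MYC, at 0.997 (0.896 to 1.099). It was below Cur and Pip alone for MXD1, at −1.46 (−1.57 to −1.35), and −0.98 on common-base depth, so MXD1 lay between both partial treatments. Against the control it was at 0.23 on summed FPKM and at 1.22 with apportioned depth. MXD4 was below both, at −0.90 and −1.17, and −0.90 and −0.63 on common-base depth. In the libraries labelled Hep3B, MLX after the combination was below NaB alone (−1.41) and below Cur and Pip alone (−1.70). On common-base depth these values were −1.44 and −1.70, and with apportioned depth −1.14 and −0.81. MXD4 there was above NaB alone at 1.41 (1.20 to 1.61), and 0.90 on common-base depth, and MXD3 was at −0.03 (−0.43 to 0.36) against Cur and Pip alone, and −0.74 on common-base depth.

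The further MYC and MLX genes were MYCN, MYCL, MGA, MLXIP and MLXIPL. MYCN, the paralog known from neuroblastoma, was listed at 0 in all 8 libraries. MYCL was listed at 0 in HepG2 and at 0 to 0.910 FPKM under the Hep3B label. MLXIPL, the glucose-responsive activator of lipid synthesis in liver, was at 32.8 FPKM in the HepG2 control, 46.6 after NaB, 5.35 with Cur and Pip and 3.89 with the combination. It was thus high in the control and after NaB and low in both libraries with Cur and Pip, with log2 fold changes of −2.41 (−2.57 to −2.26) and −2.79 (−2.94 to −2.64). With the Hep3B label it was at 1.23, 0, 4.81 and 0.460 FPKM. The summed hepatocyte markers of these HepG2 libraries were 15030, 16910, 10770 and 7276 FPKM in the same order, and their part in the MLXIPL values was not tested. MGA, a MAX partner with repressor function, was at 8.74, 4.31, 7.12 and 17.8 FPKM in HepG2 and at 4.95, 7.16, 11.03 and 5.19 FPKM under the Hep3B label. On common-base depth MGA after the combination in HepG2 was at 6.58 against 3.92 FPKM in the control, a log2 fold change of 0.62 in place of 0.95. The MGA value of −0.88 after NaB in HepG2 was 0.06 on common-base depth, and that of 1.02 after Cur and Pip under the Hep3B label was −0.04. MLXIP was at 7.71, 8.72, 10.1 and 7.88 FPKM in HepG2 and at 7.09, 6.93, 7.55 and 20.1 FPKM under the Hep3B label, where the last value was 14.4 on common-base depth. Its log2 fold change there was 1.38 on summed FPKM, 0.94 on common-base depth and −0.48 with apportioned depth, so no direction is given for MLXIP.

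The MYC-induced genes were taken as 4 lists. Of 20 genes for ribosome production and nucleolar function, 19 were listed in both libraries after NaB under the Hep3B label, and 17 of these were above the control with a median log2 fold change of 0.61, against −0.16 over all genes. After the combination there 15 of 18 were above it (median 0.34). In HepG2 the medians were −0.28 with NaB, −0.06 with Cur and Pip and −0.30 with the combination, and 16 of 18 were below the control after NaB. The threshold was passed by 1 to 4 of the 20 in each comparison, counting either direction, against 9.74 to 19.5% of all genes. Among these calls only NCL after Cur and Pip in HepG2 and NOP56 after NaB under the Hep3B label were listed in both libraries. NOP56, a core protein of small nucleolar ribonucleoproteins, was at 58.1 FPKM in the Hep3B-labelled control, 195.9 after NaB, 78.9 with Cur and Pip and 159.1 with the combination. NCL, which encodes nucleolin, was at 376.6, 367.8, 118.0 and 161.4 FPKM in HepG2. RRP12, a ribosome export factor, was at 20.04 against 11.03 FPKM in HepG2 after the combination and at 21.4 against 11.1 FPKM under the Hep3B label.

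Of 22 metabolic MYC targets, 15 of 19 listed in both libraries were below the control after the combination in HepG2 (median −0.65) and 11 of 17 under the Hep3B label (median −0.39). Past the threshold were 5 of 22 downwards and 1 upwards in HepG2, where 11.5 and 8.02% of all genes were, and 5 downwards under the Hep3B label, where 8.17% were. Of these, 2 of the 5 in HepG2 and 0 of the 5 under the Hep3B label were listed in both libraries, and the rest are listed at 0 after the combination. ODC1, the rate-limiting enzyme of polyamine synthesis, lay the other way. It was at 116.7, 140.9, 152.1 and 511.1 FPKM in HepG2 and at 83.1, 381.7, 97.4 and 218.0 FPKM under the Hep3B label. SHMT2 and MTHFD2, enzymes of mitochondrial folate metabolism, were at 27.4 against 120.2 and at 14.5 against 67.3 FPKM in HepG2 after the combination. SRM, spermidine synthase, was at 35.5 against 96.1 FPKM there. PRPS2, which makes the precursor of nucleotides, was at 18.1 against 51.4 FPKM under the Hep3B label.

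Of 13 cell cycle MYC targets, 9 of 11 listed in both libraries were below the control after the combination in HepG2 (median −0.69) and 7 of 9 under the Hep3B label (median −0.75). Past the threshold downwards were 3 of 13 in HepG2 and 4 of 11 under the Hep3B label, of which 2 each were listed in both libraries, against 11.5 and 8.17% of all genes. None passed upwards in HepG2 and 1, ID2 at 3.71, under the Hep3B label. MCM5, part of the MCM helicase that opens replication origins, was at 31.0, 12.2, 7.26 and 6.26 FPKM in HepG2 and at 142.6, 58.0, 62.9 and 32.5 FPKM under the Hep3B label. All treated libraries were below the control of their line for MCM5. MCM7 was at 57.8 against 336.7 FPKM after the combination under the Hep3B label. ID2, an inhibitor of basic helix-loop-helix factors, was at 1.14, 2.91, 14.7 and 26.97 FPKM there. CDC25A, a phosphatase that activates cyclin-dependent kinases, was at 22.4 against 9.11 FPKM in HepG2 and 26.3 against 11.3 FPKM under the Hep3B label after the combination, though in HepG2 the log2 fold change of 1.21 was 0.25 on common-base depth. Of 13 translation and chaperone targets, 11 of 12 listed in both libraries were below the control in HepG2 after the combination (median −0.45) and 9 of 13 under the Hep3B label (median −0.17). EIF5A, a translation elongation factor that carries hypusine, was at 388.2 against 592.2 and at 407.5 against 1183 FPKM.

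The genes that MYC represses lay apart from the induced lists in HepG2. Of 13 measured, 7, of which 6 were listed in both libraries, were past the threshold upwards after Cur and Pip, against 8.96% of all genes, and none downwards. After the combination 5 were past it upwards and 1 downwards, against 8.02 and 11.5%. The median over the 12 listed in both libraries was 1.18 and 0.94, while after NaB it was −0.05 and none of the 13 was past the threshold. Under the Hep3B label the medians were −0.15, −0.05 and 0.74. There 4 of 16 were past the threshold upwards after the combination and 1 downwards, against 6.79 and 8.17% of all genes. The 1 downwards was not listed in both libraries. On common-base depth 2 of 13 passed upwards and 0 downwards. CDKN1A, which encodes the cyclin-dependent kinase inhibitor p21, was at 68.5, 75.0, 291.9 and 386.6 FPKM in HepG2. GADD45B, a stress-induced growth arrest gene, was at 7.68, 6.41, 80.5 and 179.0 FPKM in HepG2 and at 15.7, 18.1, 45.3 and 217.0 FPKM under the Hep3B label. KLF6, a tumor suppressor of the Krüppel-like family, was at 153.4 against 37.7 FPKM after the combination in HepG2. NDRG2 lay the other way, at 4.34 against 35.5 FPKM. Many of these genes also answer to p53 and to the stress of the endoplasmic reticulum, so the list is not specific to the network.

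Partners of the network were also listed. Of 16 SIN3 complex and associated corepressor genes, 4 (3 of them listed in both libraries) passed the threshold downwards and 1 upwards with the combination in HepG2, and none did in any of the comparisons under the Hep3B label. Of all genes 11.5% passed downwards and 8.02% upwards with the combination in HepG2, and 10.4 to 15.0% passed in either direction under the Hep3B label. On common-base depth 1 of the 16 passed downwards (RBBP4) and 1 upwards (ING1) with the combination in HepG2. RBBP4, a histone chaperone of SIN3 complexes, had a level of 102.1 FPKM in untreated HepG2 and of 24.0, 43.5 and 18.0 FPKM after treatment. In the libraries labelled Hep3B it was at 35.3, 23.2, 24.4 and 66.7 FPKM. ING1, a SIN3 subunit that reads methylated histones, was at 5.75, 10.9, 18.7 and 22.6 FPKM in HepG2. Of 16 MYC coactivator genes, at most 2 were past the threshold in any comparison, against 9.74 to 19.5% of all genes. Those 2, with the combination in HepG2, include CDK9, which was listed at 0, and neither passed on common-base depth. CCNT1, the cyclin of the elongation kinase P-TEFb, was at 15.1 against 5.25 FPKM after the combination in HepG2. Of 14 genes for turnover of the MYC protein, 2 passed the threshold upwards and 1 downwards with the combination in HepG2, the last listed at 0, and 2 downwards with it under the Hep3B label, 1 of them listed at 0. Of all genes 8.02% passed upwards and 11.5% downwards in HepG2, and 8.17% downwards under the Hep3B label. The gene listed at 0 was FBXL14 in both lines, and on common-base depth it was at 0.19 in HepG2 and 0.47 under the Hep3B label. FBXW7, the ubiquitin ligase subunit that marks MYC for degradation, was at 2.75, 5.13, 15.7 and 13.2 FPKM in HepG2 and at 2.61, 4.17, 3.39 and 5.90 FPKM under the Hep3B label. In HepG2 its log2 fold change was 2.16 with Cur and Pip and 1.93 with the combination, and 1.08 and 1.39 on common-base depth, below the threshold.

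Targets of MondoA and ChREBP, the MLX partners, were mostly below the control. Of those listed in both libraries 7 of 9 were so after Cur and Pip in HepG2 (median −1.34), 6 of 8 after the combination (median −0.43) and 5 of 7 after the combination under the Hep3B label (median −0.53). The medians over all genes were −0.02, −0.02 and −0.09. Past the threshold in HepG2 were 2 of 11 downwards and 1 upwards after Cur and Pip, against 10.2 and 8.96% of all genes. After the combination 3 of 11 passed downwards and 1 upwards, against 11.5 and 8.02%. Under the Hep3B label 2 of 9 passed downwards after it, against 8.17%. Of these downward calls 2, 2 and 1 were listed in both libraries. PKLR, the liver pyruvate kinase, was at 11.3, 8.23, 0.648 and 0.946 FPKM in HepG2, and SCD, stearoyl-CoA desaturase, at 326.8, 148.3, 56.9 and 100.7 FPKM. TXNIP, a glucose-responsive inhibitor of glucose uptake, was at 25.9, 17.2, 9.12 and 7.31 FPKM under the Hep3B label. Its levels there were lower in each treated library than in the control. ACACA lay the other way after the combination, with log2 fold changes of 0.46 in HepG2 and 0.56 under the Hep3B label. On common-base depth it was at −0.82 and −0.67. All list counts in these comparisons are descriptions over single libraries without a test.

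**Figure D5:**
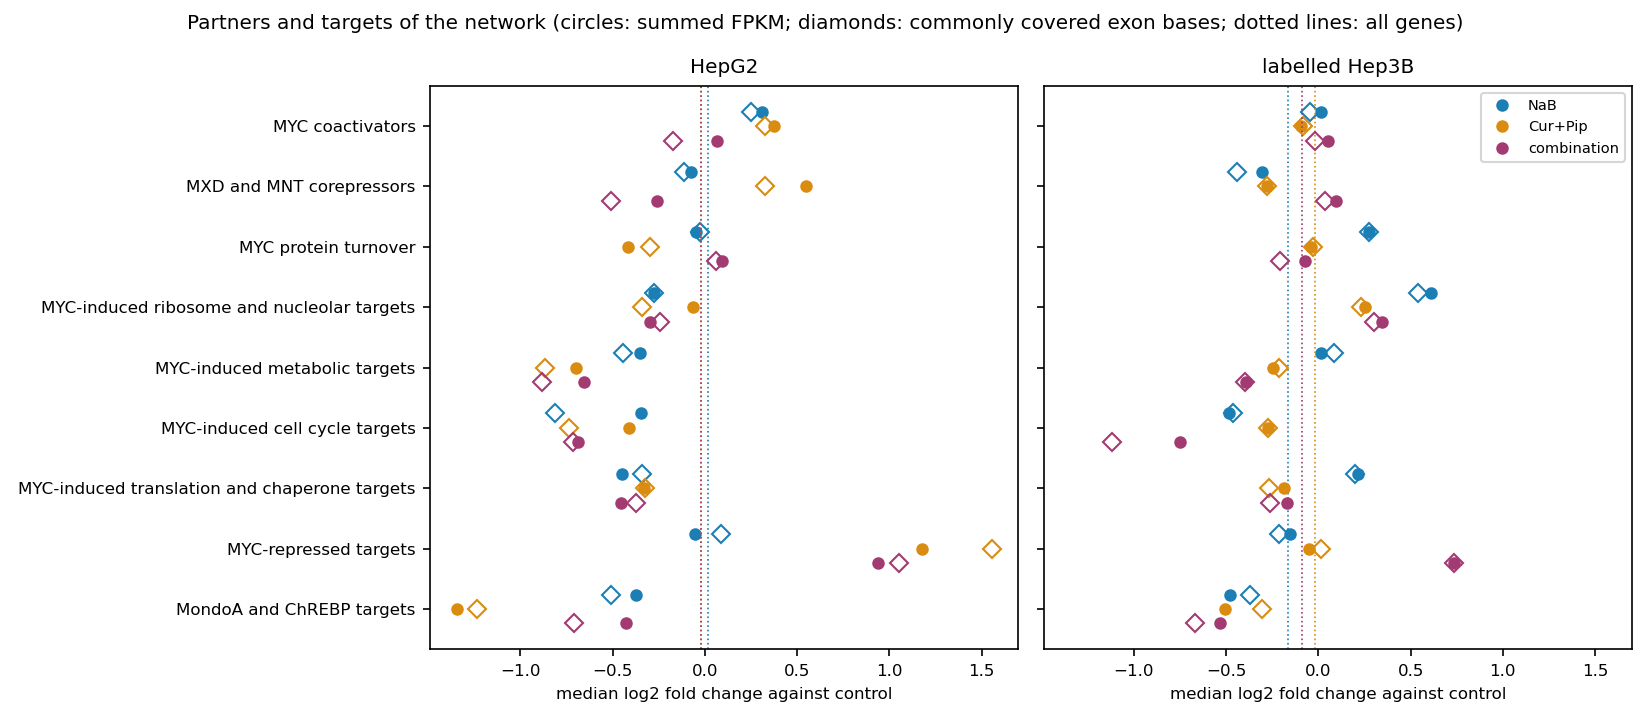
Median log2 fold change against the control of the same line (x axis) of the 9 lists of partners and targets (y axis). Circles are genes listed in both libraries by summed FPKM, diamonds the common-base depth, and dotted lines the median over all genes for each treatment. The MYC-repressed list lies right of the other lists with Cur and Pip (1.18) and with the combination (0.94) in HepG2, and the ribosome list is at 0.61 after NaB under the Hep3B label.

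Of 4934 genes at 5 FPKM or more in all 8 libraries, the one whose log2 levels, centred on the mean of its own line, ran most like MYC was CLTA (Pearson r 0.98). CLTA, a clathrin light chain, was at 172.6, 143.4, 183.1 and 182.2 FPKM in HepG2 and at 177.1, 205.6, 188.1 and 197.1 FPKM under the Hep3B label. For MXD1, among 4935 genes, the 3 most alike were KLHL18 (0.97), SEC16A (0.97) and RSL24D1 (0.97). These are the highest of that many correlations over the same 8 libraries, which share their depth and assembly, and are given as a description only.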

How the data were processed

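RNA of HepG2 cells and of cells labelled Hep3B was sequenced from stranded libraries, with 1 library for each of 4 conditions a line. RNA was taken from triplicates per the methods, and whether these were pooled into the single library is not given in the sources used here. Alignment by the authors used STAR and GRCh38, and Cufflinks then built transcripts separately for every library. FastQC and Cuffdiff are also named in the submitters' processing notes, with no versions given in the sources used here. Each deposited transcript carries an FPKM, its 95% interval and a coverage, but no gene name.

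With bedtools 2.31.1 each transcript went to the same-strand gene of GENCODE release 44 with the most of its exonic bases, if these were at least 50%. The FPKM of a gene is the sum over its transcripts. Of the assembled introns, 92.7 to 95.3% are annotated at the same coordinates, so the builds match. Common-base depth was computed from the mean coverage of each transcript over canonical exon bases covered in all 8 libraries, at least 200 nt a gene. It was added after the data were seen. Fold changes are differences of log2(FPKM + 1), which understates low genes, and were counted where any library of the line reached 1 FPKM. Intervals of sums and fold changes combine Cufflinks' intervals as independent errors. The threshold of 1.5 follows the methods. limma 3.58.1 in R 4.3.3 was fitted with line and treatment as terms. Python 3.11.15 with pandas 2.3.3 and numpy 2.4.6 was used for the rest. The threshold and the limma fit were tested on simulated data.

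The members, the 9 lists of partners and targets and the 4 marker lists were chosen with earlier results of these data known. From each list, genes were named from the 3 highest and 3 lowest after the combination in each line among those at 5 FPKM or more in 1 or both libraries, and only some of these were printed. The markers, ALB, CDK9 and FBXL14 were named after their values were seen. The alternatives were a pseudocount of 0.1 or 5, no filter, an FPKM of at least 5, TPM, scaling by the median of ratios, only the largest transcript of a gene, transcripts under 300 nt or over several genes left out, depth apportioned over canonical exons, a threshold of 1, disjoint intervals, and for limma a trended variance and each library left out. Protein sequences were not used here, and a few results are not reported here.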

Additional observations from a re-analysis of the deposited data

Results flagged for a closer look

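Members whose log2 fold changes lay on opposite sides of 0 in both lines, each with an interval that excluded 0, are given here, and the difference between the lines was not tested. After NaB, MYC was at −0.65 in HepG2 and 0.57 under the Hep3B label, and MXD1 at −1.27 and 0.36. With depth apportioned over canonical exons MYC was at 0.11 and −0.04 and MXD1 at −0.30 and 0.41. The NaB doses differ between the lines. After Cur and Pip, MNT was at −0.47 in HepG2 and 0.58 under the Hep3B label, and on common-base depth it was at −0.06 and 0.06 and with apportioned depth at 0.05 and −0.80.

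Transcripts over the exons of a member that were not assigned to it are given where their summed FPKM was above that of the control. MLX in HepG2 after NaB had 7.97 FPKM of such transcripts and MNT in HepG2 after the combination 5.15 FPKM, against none in the HepG2 control. MXD3 had 1.104, 0.323 and 0.636 FPKM in HepG2 with NaB, with Cur plus Pip and with the combination, against none in the HepG2 control.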

How the results depend on the processing

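Of 414 recomputed fold changes of members, 392 kept their sign and 22 did not, and none past the threshold and listed in both libraries changed sign. Members listed at 0 are not among the 414. MNT after the combination in HepG2, listed at 0, was at 0.29 on common-base depth and 0.24 with apportioned depth. Both values rest on the transcript that also covers METTL16. The exceptions were in MNT and MXI1 in several comparisons, in MYC after NaB in both lines with apportioned depth (0.11 in HepG2 and −0.04 under the Hep3B label), in MYC after Cur and Pip under the Hep3B label with the largest transcript (−0.44) or apportioned depth (−0.52), and in MYC after the combination in HepG2 with the largest transcript (−0.18). The cause was not tested. MAX and MLX had 1 and 3 such values. MXD3 kept its sign under every alternative in 5 of 6 comparisons, but was at 0.23 after NaB in HepG2 with the largest transcript. MXD4 kept its sign in all 6. Of 660 recomputed list medians 627 kept their sign.

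The counts of members past the threshold changed as follows. After NaB in HepG2 there were 2 at a threshold of 1. After Cur and Pip in HepG2 there were 0 with a pseudocount of 5 or with the largest transcript, and 1 with an FPKM of at least 5 or on common-base depth. After the combination in HepG2 there were 0 with a pseudocount of 5 or with apportioned depth, 1 with the largest transcript or on common-base depth, and 3, with MXD3 added, with a pseudocount of 0.1, median-of-ratios scaling, TPM or a threshold of 1. Under the Hep3B label there was 1 after NaB with a pseudocount of 5. After the combination there were 2 with TPM or the largest transcript and 3 at a threshold of 1. After Cur and Pip under the Hep3B label the count was 1 under every alternative.

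Over all genes limma called 0 with NaB, 4 with Cur and Pip and 11 with the combination, against 18, 29 and 59 with a pseudocount of 0.1 and 0 each on common-base depth or with any library left out. With apportioned depth it called 1, 2 and 19, and for the combination it called 20 with median-of-ratios scaling and 4 with a pseudocount of 5. For Cur and Pip it called 2 with a trended variance or a pseudocount of 5. limma called 0 members under every alternative, with each library left out in turn included (range 0 to 0), and the adjusted p of MXD3 after the combination ranged from 0.142 to 0.618. Apart from the line term of the limma fit, no pairing was possible, because each condition has 1 library and the labels give no shared replicate numbers. Without replicates, differences near the size of the spread between cultures could not be told from it, and members under about 5 FPKM rest on few fragments.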
